A study of Drosophila melanogaster with 9 samples.

Results

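The proteasome subunit genes of Drosophila melanogaster were taken by name from both count tables, as the genes whose symbol begins with Prosalpha, with Prosbeta, or with Rpn or Rpt and a digit. The rule found 47 of 17806 named genes. Of these, 14 encode the core particle (7 alpha and 7 beta subunits) and 18 the regulatory particle (6 Rpt ATPases, 4 other base subunits and 8 lid subunits). The other 15 are the paralogs whose names carry a T or an R after the number. The 32 genes outside the paralogs are called canonical here.

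The proteasome is the protease that degrades proteins marked with ubiquitin. Its core is a barrel in which outer rings of alpha subunits control entry and inner rings of beta subunits hold the cutting sites, while the regulatory particle binds ubiquitin chains, unfolds the substrate and feeds it into the barrel. In flies the paralogs are known mainly from the male germline, and transcription of the canonical genes can be raised together through the factor encoded by cnc when proteasome activity is low.

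The study is about Swm, an RNA-binding protein, and the progenitor cells of the adult intestine. RNA-seq covered 3 libraries with genotype swm RNAi (RNA interference against swm) and 3 control libraries with genotype WT, titled esgTS. All 6 came from GFP-positive intestinal progenitors, 30000 to 50000 sorted cells from 100 adult females a replicate. CLIP-seq, the sequencing of RNA that precipitates with a protein, covered 2 Swm immunoprecipitates (IP) and 1 input of total lysate from whole WT intestines, with no mock precipitate analysed here. Library totals were 14627251 to 19399264 counts with swm RNAi, 19428033 to 19962224 in controls, 2451369 and 8497190 in the IP and 4615623 in the input.

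Reads of swm itself came to 159, 137 and 135 CPM (library-scaled counts, TMM) under the swm RNAi label and to 159, 116 and 157 CPM in controls, with a log2 fold change of -0.0036 (SE 0.17, adjusted p = 0.998 by edgeR's quasi-likelihood test). The knockdown is therefore not visible in this transcript, and every value given for swm RNAi is that of the libraries labelled so. The 5 progenitor markers esg, Dl, N, Sox21a and hdc summed to 4214 to 5178 CPM with swm RNAi and 3061 to 5111 CPM in controls, against 228 CPM in the whole-intestine input. The enteroendocrine markers summed to at most 9.90 CPM in any sorted library, and the 5 enterocyte markers to 255 to 269 CPM with swm RNAi and 292 to 345 CPM in controls. Visceral muscle markers summed to 4010 to 6866 CPM with swm RNAi and 2359 to 9670 CPM in controls, and 6 digestive enzyme genes to 509 to 1521 CPM with swm RNAi and 206 to 413 CPM in controls. No gene of these lists was called in the RNA-seq comparison, and their part in the results for the proteasome genes was not tested.

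The canonical genes lie on all the large chromosome arms, with 4 on 2L, 10 on 2R, 5 on 3L, 9 on 3R and 4 on X (BDGP6). They are short. The span of a core gene, introns included, had a median of 1201 bases (914 to 1376), and that of a regulatory particle gene a median of 1762 bases (995 to 4500). Of the 32, Rpt1, Prosbeta3, Rpn12 and Rpn7 have no intron. The closest pairs were Rpn9 and Rpt5 on 3R, 19413 bases apart, and Rpn12 and Prosbeta6 on 3L, 25377 bases apart.

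Every canonical gene except Prosalpha1, which could not be read from these counts, was expressed in the sorted progenitors. In CPM per kilobase of exon, the means with swm RNAi ran from 37.1 ± 5.45 for Rpt2 to 101.1 ± 13.3 for Prosalpha6 (SD, n = 3), a range of 2.72-fold over 31 genes. In controls they ran from 35.1 ± 5.79 for Rpn8 to 98.2 ± 12.2 for Prosalpha7, a range of 2.80-fold. The highest and lowest genes thus lay within 3-fold of each other in both groups. The coefficient of variation between replicates had a median of 10.4% over genes with swm RNAi and 14.0% in controls.

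Core transcripts stood above those of the regulatory particle. The median level per kilobase was 78.6 for the core genes and 54.6 for the regulatory particle genes with swm RNAi, and 72.8 against 43.9 in controls. In the order of control levels, the first 9 places were all held by core genes, led by Prosalpha7, Prosalpha6 and Prosbeta5. Rpn7, at 67.6 ± 19.8, was the highest gene of the regulatory particle, and Prosalpha4, at 47.4 ± 4.53, and Prosbeta7, at 49.0 ± 13.9, were the lowest of the core. Neighbours in this order differed by less than the larger of their SDs. Over the 13 detected core and 18 regulatory particle genes, the ratio of the medians was 1.43, 1.45 and 1.45 in the swm RNAi libraries and 1.48, 1.64 and 1.77 in control replicates 1, 2 and 3. The swm RNAi libraries lay below the controls, by a small margin to control replicate 1, and the group means were 1.44 ± 0.0133 with swm RNAi and 1.63 ± 0.148 in controls (SD, n = 3). The ratio of summed CPM, core over regulatory particle, was 0.594, 0.577 and 0.610 with swm RNAi and 0.564, 0.641 and 0.632 in controls, where the groups overlapped.

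**Figure D1:**
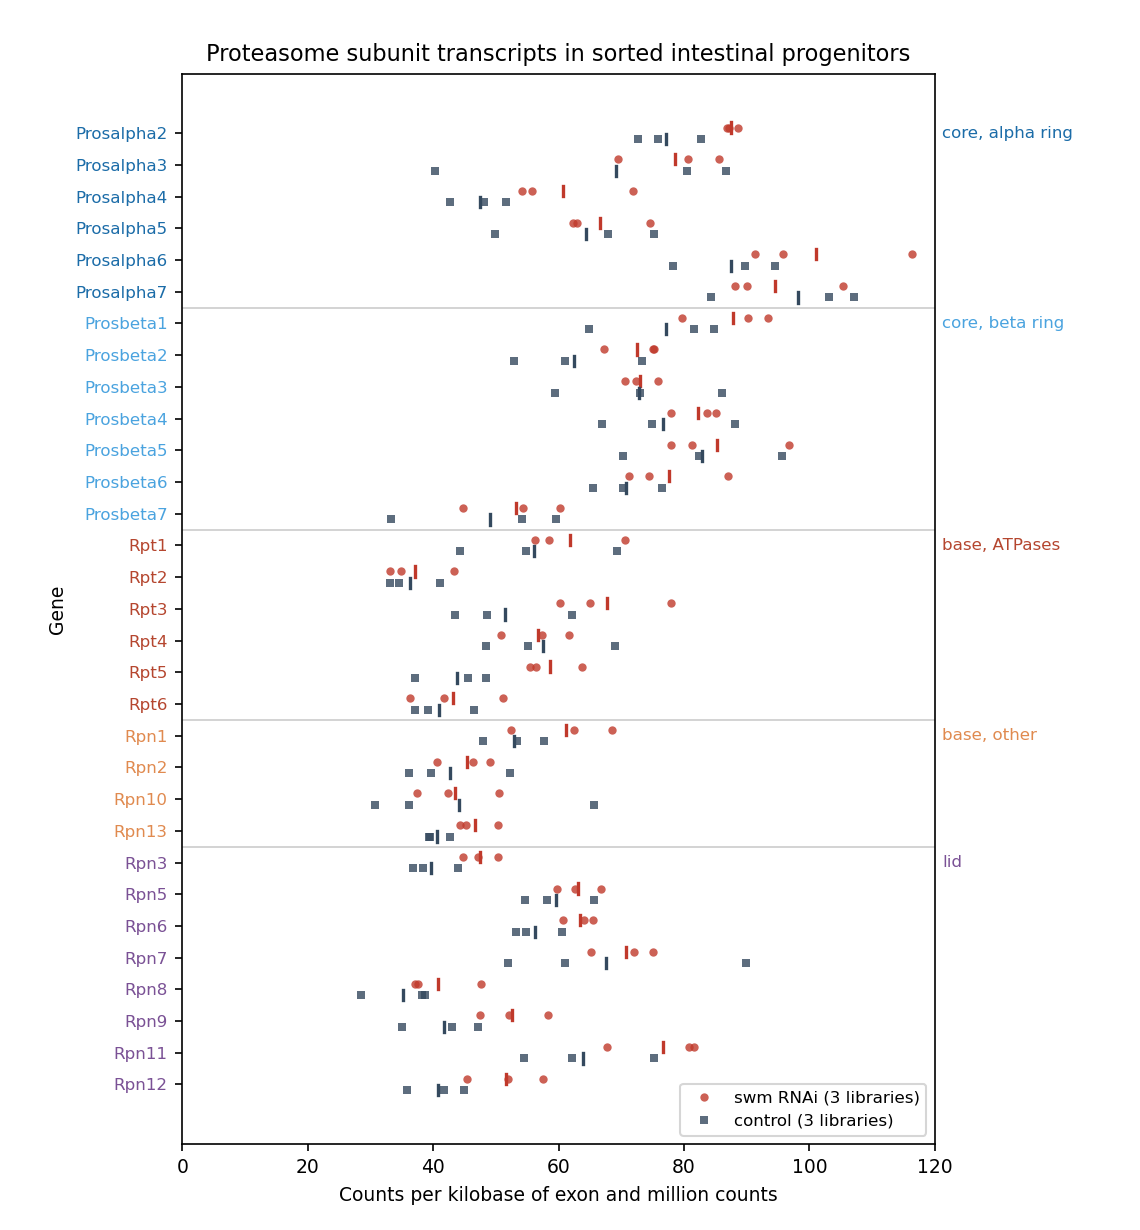
Levels of the 31 detected canonical subunit transcripts in sorted progenitors, in CPM per kilobase of exon, with swm RNAi libraries as circles, control libraries as squares and vertical bars for group means (3 libraries each). Control means run from 35.1 for Rpn8 to 98.2 for Prosalpha7, and most core genes lie to the right of most regulatory particle genes.

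**Figure D2:**
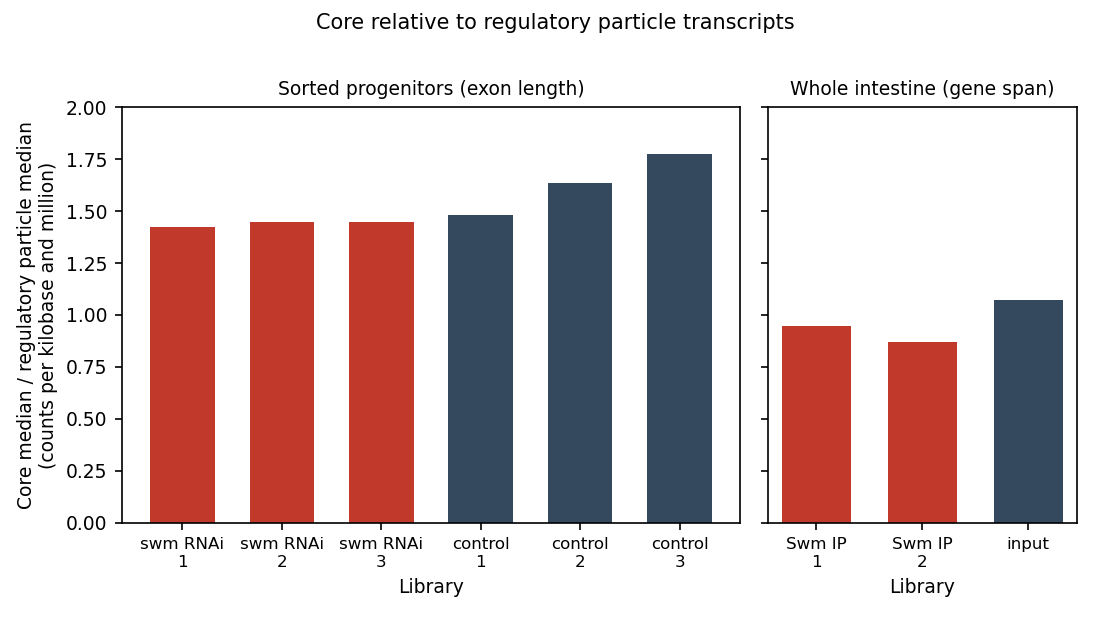
Ratio of the median core level to the median regulatory particle level in each library, per kilobase of exon in progenitors and per kilobase of gene span in whole intestine, which are 2 different length scales. Genes that could not be read are left out (Prosalpha1 in both, Rpt1 and Rpt6 in whole intestine). The bars stand at 1.43 to 1.45 with swm RNAi, 1.48 to 1.77 in controls, 0.947 and 0.872 in the Swm IP and 1.07 in the input.

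No proteasome subunit gene changed past the threshold with swm RNAi. Of the 47 genes, 32 passed the filter on low counts, the 31 detected canonical genes and Rpn13R, and 0 were called higher or lower by edgeR's quasi-likelihood test at an adjusted p of 0.05. Over all 8899 genes tested, 3.17% were called, 2.34% higher and 0.832% lower. At an unadjusted p under 0.05 there was 1 subunit gene, Rpt5, against 12.4% of all genes, and DESeq2 called 0 subunit genes as well. A background of 3.17% amounts to about 1 gene in 32, so the subunit genes did not stand out from all genes by this count.

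The changes were small and mostly above 0. The log2 fold changes of the 31 canonical genes had a median of 0.18 and ran from -0.055 for Prosalpha7 to 0.42 for Rpt5, and 28 of them were above 0. Over all genes the median was 0.033, and 4737 of 8899 were above 0. With library sizes alone as the scaling, 24 of the 31 were above 0. Without swm RNAi replicate 1 it was 23 and without control replicate 1 it was 21, and the median over the 32 tested genes, 0.16 with all libraries, was then 0.076 and 0.096. The 95% intervals of the single canonical genes reached from -0.62, for Rpn10, to 0.80, for Rpt3. For each gene, a change of any size within its own interval remains possible with 3 libraries a group. In sorted pools, fewer cells of a type and less RNA per cell cannot be told apart.

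Summed over the core genes, the libraries held 1103, 951 and 976 CPM with swm RNAi and 781, 985 and 1006 CPM in controls. Summed over the regulatory particle genes, they held 1856, 1648 and 1600 CPM with swm RNAi and 1386, 1535 and 1593 CPM in controls. Control replicate 1 stood lowest of the controls in both sums, as it did for 20 of the 31 genes singly, and swm RNAi replicate 1 stood highest, as for 24 of the 31. All swm RNAi libraries lay above all controls for 8 of the 32 tested genes, Rpt5, Rpn13, Prosalpha2, Prosalpha4, Rpn12, Rpn3, Rpn6 and Rpn9, where the same held for 12.3% of all genes, and all lay below for 0, where the same held for 7.94%. The count above was 3 with DESeq2-type size factors, where the same held for 11.1% of all genes. It was 1 with library sizes alone, where the same held for 9.97%, so it depends on the scaling.

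**Figure D3:**
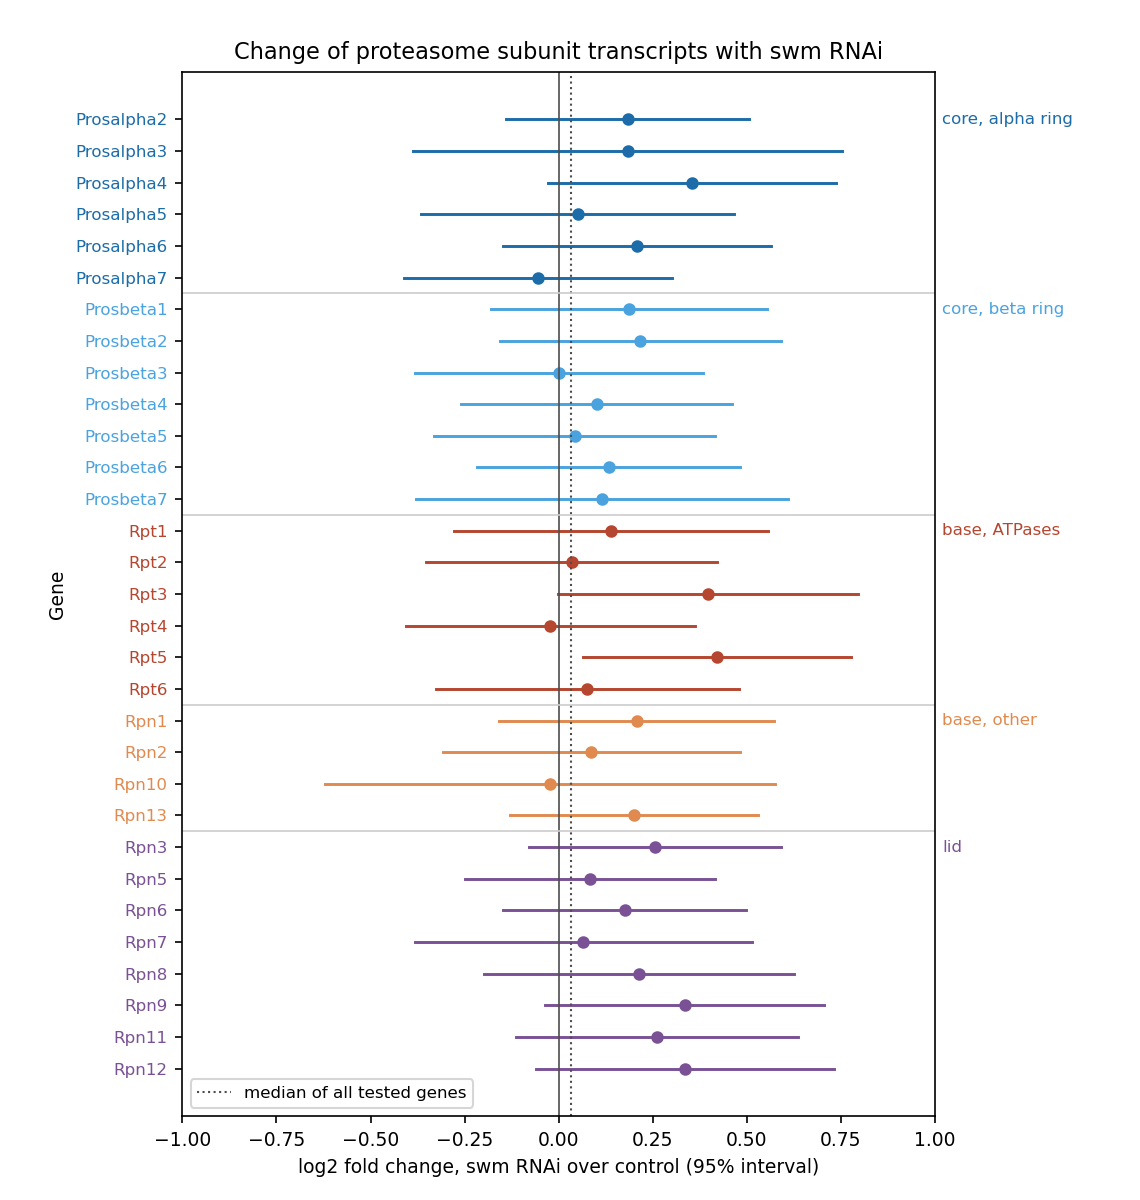
The log2 fold change of each detected canonical gene, swm RNAi over control, with its 95% interval from edgeR's quasi-likelihood fit (3 libraries against 3), grouped by role. Estimates run from -0.055 for Prosalpha7 to 0.42 for Rpt5, and the interval of Rpt5 alone lies wholly above 0, before any adjustment.

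Among the alpha subunits, which form the gated outer rings, the median log2 fold change was 0.18. Prosalpha4 had the smallest p-value of the ring, with 84.6, 63.7 and 65.6 CPM with swm RNAi and 50.1, 60.7 and 56.5 CPM in controls. The groups did not overlap, by a small margin, and its log2 fold change was 0.35 (SE 0.17, adjusted p = 0.462 by edgeR). Prosalpha6 stood at 124, 97.7 and 102 CPM with swm RNAi and 83.7, 96.0 and 101 CPM in controls, with a log2 fold change of 0.21 (SE 0.16, adjusted p = 0.725). Its swm RNAi replicate 2 lay within the control range. Prosalpha7, the highest of all canonical genes per kilobase in controls, had 103, 87.8 and 86.0 CPM with swm RNAi and 82.2, 105 and 101 CPM in controls, so that all swm RNAi libraries lay within the control range, and a log2 fold change of -0.055 (SE 0.16, adjusted p = 0.953).

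Among the beta subunits the median was 0.12, and all 7 estimates lay above 0, the lowest at 0.0016 for Prosbeta3. In eukaryotes Prosbeta1, Prosbeta2 and Prosbeta5 carry the cutting sites. Prosbeta1 stood at 76.9, 67.9 and 79.6 CPM with swm RNAi and 55.2, 69.5 and 72.3 CPM in controls (log2 fold change 0.19, SE 0.17, edgeR adjusted p = 0.782). Prosbeta2 stood at 77.6, 77.8 and 69.6 CPM with swm RNAi and 54.6, 75.7 and 63.2 CPM in controls (0.22, SE 0.17, adjusted p = 0.727). Prosbeta5 stood at 110.2, 88.7 and 92.5 CPM with swm RNAi and 80.1, 93.8 and 109 CPM in controls (0.042, SE 0.17, adjusted p = 0.965). In each of these 3 genes the groups overlapped, and control replicate 1 was the lowest library.

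The Rpt ATPases form the ring that unfolds substrates. Rpt5 had the largest change of the canonical genes, with 104, 90.3 and 91.7 CPM with swm RNAi and 78.9, 74.2 and 60.3 CPM in controls. The groups were clear of each other, with a log2 fold change of 0.42 (SE 0.16, unadjusted p = 0.0244), and the adjusted p was 0.274 by edgeR. Rpt3 followed at 121, 101 and 93.5 CPM with swm RNAi and 75.5, 96.5 and 67.4 CPM in controls (0.40, SE 0.18, adjusted p = 0.401), with control replicate 2 above the lowest swm RNAi library. Rpt4 and Rpt1, the highest ATPase transcripts per kilobase in controls, moved less. Rpt4 had 90.4, 84.0 and 74.5 CPM with swm RNAi and 70.9, 80.7 and 101 CPM in controls (-0.022, SE 0.17, adjusted p = 0.981). Rpt1 had 107, 88.6 and 85.2 CPM with swm RNAi and 82.9, 105 and 67.1 CPM in controls (0.14, SE 0.19, adjusted p = 0.882). The groups of both overlapped. The ring as a whole had a median of 0.11.

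The other base subunits include the scaffolds Rpn1 and Rpn2 and the ubiquitin receptors Rpn10 and Rpn13. Rpn1, which also docks shuttle factors, had 208, 190 and 160 CPM with swm RNAi and 146, 162 and 175 CPM in controls (log2 fold change 0.21, SE 0.17, edgeR adjusted p = 0.737), an overlap through swm RNAi replicate 3. Rpn13 had 75.5, 84.3 and 73.9 CPM with swm RNAi and 65.8, 71.5 and 66.1 CPM in controls (0.20, SE 0.15, adjusted p = 0.705), without overlap. Rpn10 had 71.9, 53.3 and 60.2 CPM with swm RNAi and 43.6, 51.3 and 93.3 CPM in controls (-0.023, SE 0.27, adjusted p = 0.987). Its control replicate 3 lay above every other library, and without that library the log2 fold change was 0.38.

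The lid holds Rpn11, the enzyme that removes ubiquitin chains from substrates, its inactive partner Rpn8 and the scaffold subunits around them. It had the highest median of the role groups, 0.23, with all 8 estimates above 0. Rpn9 had 98.0, 87.4 and 79.6 CPM with swm RNAi and 58.8, 79.2 and 72.1 CPM in controls (log2 fold change 0.34, SE 0.17, edgeR adjusted p = 0.480). Rpn12 had 57.2, 45.1 and 51.6 CPM with swm RNAi and 35.6, 44.8 and 41.5 CPM in controls (0.34, SE 0.18, adjusted p = 0.521). In both the groups were separate by less than 1 CPM. Rpn11 had 98.6, 81.8 and 97.6 CPM with swm RNAi and 65.9, 75.2 and 90.8 CPM in controls (0.26, SE 0.17, adjusted p = 0.642). Rpn7 had 105, 90.9 and 100.4 CPM with swm RNAi and 72.3, 85.0 and 125 CPM in controls (0.066, SE 0.20, adjusted p = 0.955). Control replicate 3 was the highest control in both, and the groups overlapped. The remaining lid genes Rpn3, Rpn5, Rpn6 and Rpn8 had estimates of 0.083 to 0.26.

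The changes of core and regulatory particle genes lay close together. The median log2 fold change was 0.13 for 13 core genes and 0.19 for 18 regulatory particle genes, a difference of -0.055 whose replicate spread was 0.131. Leaving out each library in turn gave differences from -0.073 to 0.0028.

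The paralogs were at or near 0. Of the 15, 5 had no count in any RNA-seq library and 12 had at most 10 counts in each. The highest count of the others, Rpn13R left out, was 14 (Prosbeta4R1, in swm RNAi replicate 2). Rpn13R, a paralog of the ubiquitin receptor, had 24, 21 and 21 counts with swm RNAi and 101, 13 and 37 counts in controls, high in control replicate 1 alone. Its log2 fold change was -0.85 (SE 1.04, adjusted p = 0.864 by edgeR). It lies inside the genes rg and CG15465 on the same strand, and rg itself had 19, 49 and 24 counts with swm RNAi and 87, 29 and 0 counts in controls. In the IP table all 15 had at most 7 counts. Rpn13R, Rpn12R and Prosalpha4T1 had 0 in the input and in both IP libraries, but each lies wholly inside another gene. Of the expressed genes lying so, 99.0% had at most 3 input counts. The zeros of Rpn13R, Rpn12R and Prosalpha4T1 therefore cannot show whether they were absent from whole intestine. Male germline markers (bam, aly, can, comr, tomb, dj, Mst87F, ocn) summed to at most 0.562 CPM with swm RNAi and 1.86 CPM in controls, with can, Mst87F and ocn at 0 in all 6 libraries.

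Some members could not be read from these tables. Prosalpha1 had 0 counts in every library of both tables, and so did CG30382, annotated as Prosalpha1R. A count of 0 allows up to 3 counts, and whether reads were lost to this copy was not tested. Rpt1 had 0 counts in both IP libraries and in the input although it stood at 67.1 CPM or more in every progenitor library. It lies wholly inside CG17985 on the same strand (2R:7652440-7653954). Rpt6 had 4 and 20 counts in the IP libraries and 20 in the input, and 91.3% of its span overlaps CG1801 on the other strand. The pattern was general for the IP table, which counts over whole gene spans. Of 196 genes lying inside another gene with a control mean of at least 50 CPM, 194 (99.0%) had at most 3 input counts, against 7 of 2492 (0.281%) of those that do not. No level is given for Rpt1 and Rpt6 in whole intestine. Rpt6, which is not wholly inside another gene, stayed in the IP test with its few counts.

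In the immunoprecipitates the proteasome transcripts were under-represented. Of the 30 subunit genes tested, all canonical, 17 were lower in the Swm IP than in the input by edgeR's quasi-likelihood test and 0 were higher, where 8.97% of all 8375 genes were lower and 9.25% higher. The median log2 ratio over the 30 was -1.01, beside 0.0041 over all genes. In both IP libraries 28 were below the input, as were 41.7% of all genes, and 11 were at least 2-fold below, as were 10.3%. None was at least 2-fold above in both, where 11.6% of all genes were. Without Rpt6, 17 of 29 were lower, 27 were below the input in both and 10 were at least 2-fold below. Since the fit leaves 1 residual degree of freedom, the input, a single library, is taken to vary as the IP libraries do. In the authors' deposited table, made with DESeq2, 30 subunit genes are listed, 1 of them without an adjusted p, and 7 are lower and 0 higher. The share over all genes of that table was not computed. DESeq2 run here on the counts also gave 7 lower and 0 higher, where 397 of all 8375 genes were lower and 535 higher.

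**Figure D4:**
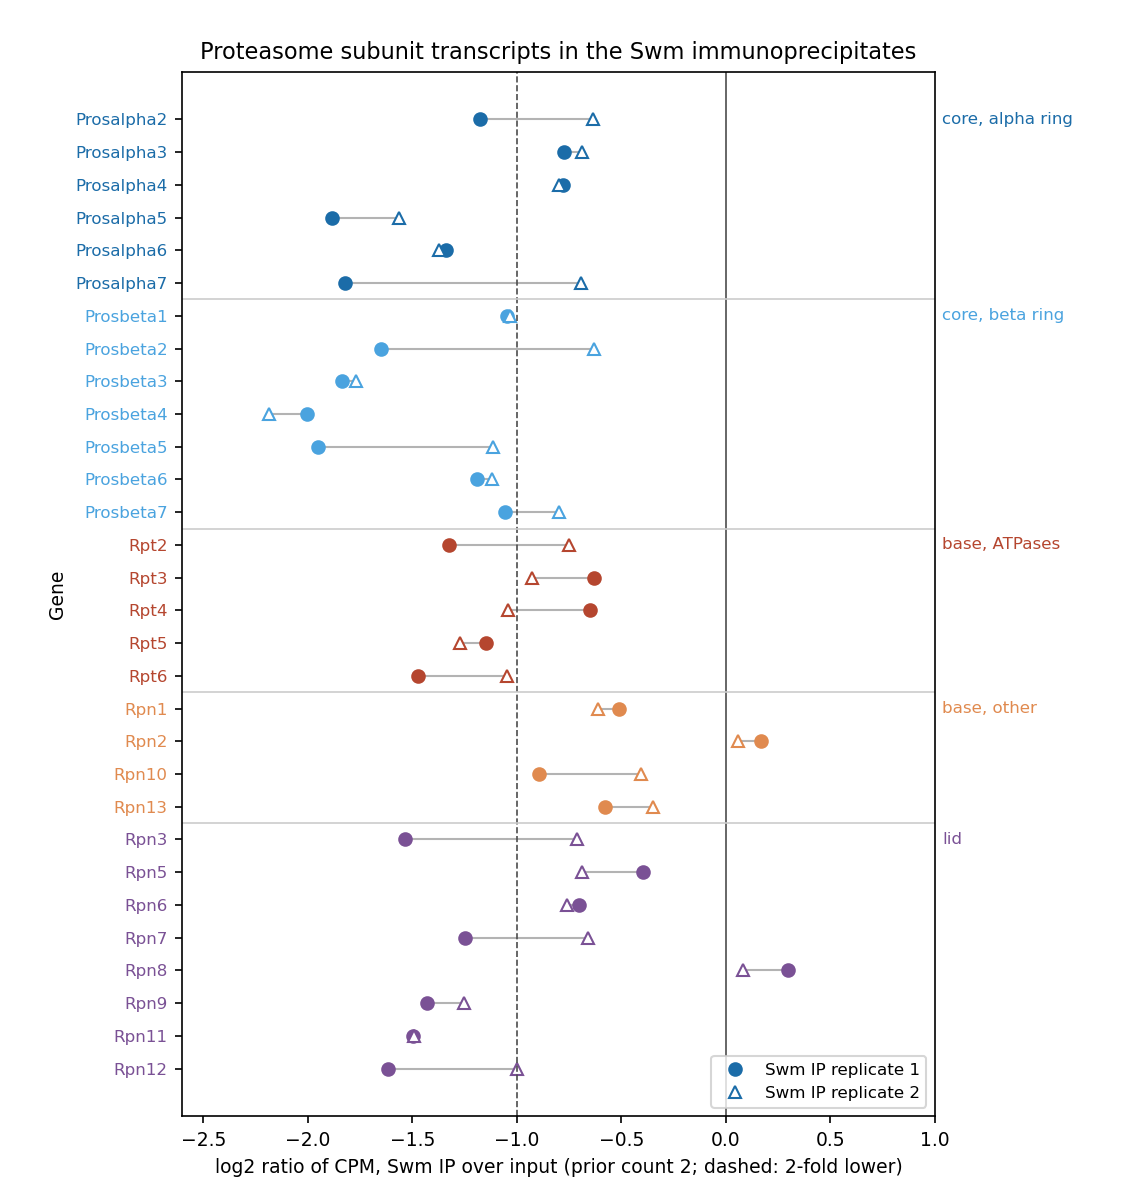
The log2 ratio of CPM in each Swm IP library over the single input (prior count 2) for the 30 tested canonical genes, with replicate 1 as filled circles and replicate 2 as open triangles, grouped by role. Only Rpn2 and Rpn8 lie above 0 in both, and 11 genes lie at or beyond the dashed line of a 2-fold lower level in both.

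The core stood lowest. Of 13 core genes 10 fell, with a median of -1.12. Of 17 regulatory particle genes 7 fell, with a median of -0.85, a difference between the medians of -0.28. Over all genes 8.97% fell. The core genes are also shorter, and with the length trend removed the difference was 0.0022. All 7 beta subunits fell, with a median of -1.16. The clearest was Prosbeta4, an inner-ring subunit without a cutting site, at 20.8 and 18.2 CPM in the IP and 84.4 CPM in the input (log2 ratio -2.12, SE 0.38, adjusted p = 4.88e-06 by edgeR). Prosbeta3 followed at 18.4 and 19.3 CPM in the IP and 66.8 CPM in the input (-1.82, SE 0.40, adjusted p = 0.000262). The replicates of both lay close together. Prosbeta5 had 26.1 and 47.0 CPM in the IP and 102 CPM in the input (-1.45, SE 0.34, adjusted p = 0.000516), with the second IP library well above the first. The remaining 4 beta subunits had log2 ratios of -1.16 to -0.92.

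Of the 6 alpha subunits tested 3 fell, where 8.97% of all genes did. Prosalpha5 had 15.8 and 19.8 CPM in the IP and 59.1 CPM in the input (log2 ratio -1.72, SE 0.42, edgeR adjusted p = 0.000961). Prosalpha6 had 37.3 and 36.5 CPM in the IP and 95.0 CPM in the input (-1.37, SE 0.34, adjusted p = 0.00115). Prosalpha7 had 20.8 and 45.9 CPM in the IP and 74.5 CPM in the input (-1.12, SE 0.37, adjusted p = 0.0224). Both IP libraries lay below the input in all 3, but for Prosalpha7 the IP libraries differed more from each other than the second did from the input in log2 terms. Prosalpha2, Prosalpha3 and Prosalpha4 had ratios of -0.87 to -0.73 and did not pass.

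In the lid 5 of 8 fell, where 8.97% of all genes did. Rpn11, the deubiquitinating enzyme, had 28.8 and 29.0 CPM in the IP and 82.1 CPM in the input (log2 ratio -1.51, SE 0.36, edgeR adjusted p = 0.000825). Rpn9 had 32.3 and 36.6 CPM in the IP and 87.6 CPM in the input (-1.34, SE 0.35, adjusted p = 0.00207). Rpn12 had 25.7 and 39.7 CPM in the IP and 79.7 CPM in the input (-1.26, SE 0.36, adjusted p = 0.00558). In all 3 genes both IP libraries lay well below the input. Rpn3 (-1.05) and Rpn7 (-0.91) also passed. Rpn5 (-0.54) and Rpn6 (-0.74) did not pass. Rpn8 alone of the lid lay above the input, at 89.9 and 77.3 CPM in the IP and 73.0 CPM in the input (0.19, SE 0.32, adjusted p = 0.740). It has the longest span of the canonical genes, 4500 bases, of which 59.0% overlaps Slik on the other strand.

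Among the ATPases 2 of 5 fell, where 8.97% of all genes did. Rpt5 had 47.7 and 43.7 CPM in the IP and 106 CPM in the input (log2 ratio -1.22, SE 0.32, edgeR adjusted p = 0.00260). Rpt2 had 41.1 and 61.5 CPM in the IP and 104 CPM in the input (-0.999, SE 0.32, adjusted p = 0.0157). Rpt3 and Rpt4 had ratios of -0.78 and -0.85. No other base subunit passed, and their median was -0.51. Rpn1 had 161 and 151 CPM in the IP and 230 CPM in the input (-0.56, SE 0.25, adjusted p = 0.112), and Rpn10 had 40.4 and 56.7 CPM in the IP and 75.2 CPM in the input (-0.62, SE 0.34, adjusted p = 0.214). Rpn2, the second longest gene at 3732 bases, had 181 and 168 CPM in the IP and 161 CPM in the input (0.11, SE 0.26, adjusted p = 0.823). Rpn13 had a ratio of -0.46 and did not pass.

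Gene span moved with the IP ratio, among the subunits and over all genes. Across the 30 subunit genes the log2 ratio had Pearson's r of 0.77 and Spearman's rho of 0.66 with the log2 span, a description over genes that share the same 3 libraries. Among the 27 genes under 3000 bases r was 0.57, so Rpn1, Rpn2 and Rpn8 carry part of it. Over all 8375 genes r was 0.49 and rho 0.61. In the shortest decile of all genes (up to 1033 bases) the median ratio was -1.18 and 30.1% were called lower, and in the longest decile the median was 1.19. The 3 shortest deciles held 6, 10 and 7 of the subunit genes, and the 3 longest held none. The second decile (1033 to 1461 bases) had a median of -0.795, with 17.6% lower. The third (1461 to 1885 bases) had a median of -0.551, with 13.4% lower. The 4462 genes with spans from 914 to 4500 bases, the full range of the subunits, had a median of -0.35, with 11.3% lower and 0.986% higher. That range reaches 4500 bases through Rpn8 alone, and most subunit genes lie at its short end.

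**Figure D5:**
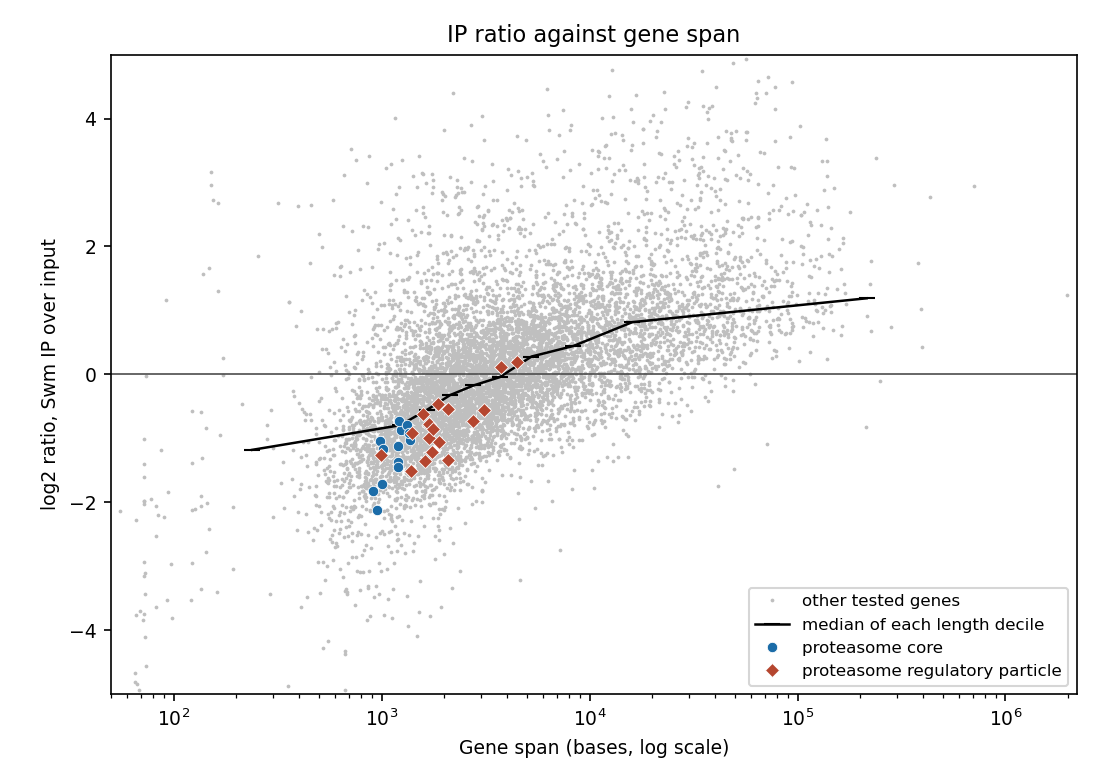
The log2 ratio of Swm IP over input from the edgeR fit against gene span in bases (log scale) for 8375 tested genes, with core genes as circles, regulatory particle genes as diamonds and the median of each length decile as a line. The medians climb from -1.18 in the shortest decile to 1.19 in the longest, and the subunit genes sit at the short end, mostly at or below the line. The vertical axis leaves out 200 genes beyond its ends.

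With the length trend removed from each library, 2 of the 30 subunit genes were called lower. This share is close to the 6.63% of all genes called lower (1.68% were higher), so by this count the subunit genes did not stand out. The 2 genes were Prosbeta4 (log2 ratio -1.19, SE 0.39, edgeR adjusted p = 0.0344) and Rpn9 (-1.04, SE 0.36, adjusted p = 0.0473). The median over the 30 was -0.40, beside -0.061 over all genes. Of the 30, 27 stayed below 0, where 4467 of all 8375 genes lay below 0. The core and the regulatory particle no longer stood apart, with medians of -0.40 and -0.41 and a difference of 0.0022. With a robust form of the same correction the median was -0.31. It called 0 subunit genes, where 452 of all 8375 genes were lower and 209 higher. Without a length correction, library sizes alone as the scaling gave 8 subunit genes lower, where 417 of all genes were. DESeq2 gave 7, where 397 of all genes were.

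Levels also differed between the sources. In CPM per kilobase of gene span, the median of the 13 readable core genes was 25.2 and 30.8 in the IP libraries and 62.4 in the input. That of the 16 readable regulatory particle genes was 26.6 and 35.4 in the IP libraries and 58.3 in the input. The core-to-particle ratio was thus 0.947 and 0.872 in the IP and 1.07 in the input. These levels are without the length correction, under which the median log2 IP ratios were -0.40 for the core and -0.41 for the regulatory particle. In the input, Prosbeta4 at 88.4 and Prosbeta5 at 85.1 stood highest, and Rpn8 lowest of the readable genes at 16.2, its long intron included in the length. As 59.0% of the Rpn8 span overlaps Slik on the other strand, counts may also be missing there, which was not tested. Visceral muscle markers summed to 18000 and 19120 CPM in the IP and 5829 CPM in the input, and the digestive enzymes to 21940 and 27450 CPM in the IP and 50920 CPM in the input. Progenitor markers summed to 418 to 445 CPM in the IP and 228 CPM in the input, enterocyte markers to 1603 to 1669 CPM in the IP and 1957 CPM in the input, and enteroendocrine markers to 80.6 to 80.7 CPM in the IP and 145 CPM in the input. The part of these lists in the ratios of the subunit genes was not tested.

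Other genes of the ubiquitin-proteasome route were read from a list of 22. Of these, 0 were called with swm RNAi, where 3.17% of all genes were. Their median log2 fold change was 0.068, beside 0.033 over all genes. The smallest adjusted p was that of the polyubiquitin gene Ubi-p63E, with 762, 905 and 746 CPM with swm RNAi and 366, 513 and 525 CPM in controls. All swm RNAi libraries were above all controls, as they were for 12.3% of all genes. The log2 fold change was 0.78 (SE 0.19, adjusted p = 0.0571 by edgeR). The next smallest was that of cnc, the transcription factor gene, with 518, 590 and 500.1 CPM with swm RNAi and 407, 198 and 383 CPM in controls (0.70, SE 0.25, adjusted p = 0.228), also without overlap. Its low control was replicate 2. Pomp, the core assembly chaperone, and Uba1, the ubiquitin-activating enzyme, had estimates of -0.082 and 0.051.

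In the IP 6 of 21 tested genes of this list were lower and 0 higher, where 8.97% of all genes were lower and 9.25% higher. They were Sem1, a small lid subunit outside the name rule, the ubiquitin fusion genes RpS27A and RpL40, the shuttle Rad23, the polyubiquitin gene Ubi-p5E and maf-S, a partner of cnc. RpS27A had 321 and 468 CPM in the IP and 1297 CPM in the input (log2 ratio -1.71, SE 0.26, edgeR adjusted p = 1.042e-07). Sem1 had 15.4 and 14.8 CPM in the IP and 50.5 CPM in the input (-1.74, SE 0.45, adjusted p = 0.00198). With the length trend removed 3 were lower, where 6.63% of all genes were, namely RpS27A (-1.43), Ubi-p5E (-0.83) and cnc, whose ratio of 0.38 became -0.93 at its span of 41132 bases.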

How the data were processed

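Counts per gene were deposited by the authors for 6 RNA-seq and 3 CLIP-seq libraries. The submitters' processing notes list STAR 2.7.3a, Subread 2.0.0 with featureCounts, SAMtools 1.10, cutadapt 2.9 and, for the comparisons, DESeq2. Genome build, annotation and strand setting of the counting: not given in the sources used here. The lengths in the headers equal exon lengths for RNA-seq and whole gene spans for CLIP-seq, where intronic reads may thus be counted. Log2 ratios and adjusted p-values of the authors' deposited comparisons appear only where that source is named. A further 9 per-sample columns were not used. The 1 nameless row of each count table held at most 5 counts in a library and was left out. Coordinates are from the BDGP6 annotation, whose coordinates match those in the authors' deposited CLIP-seq comparison for 30 of 30 subunit genes listed there.

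Each table was fitted whole with edgeR 4.0.16 under R 4.3.3. TMM scaling followed filterByExpr at a minimum count of 10, the quasi-likelihood fit was robust, and calls needed a Benjamini-Hochberg adjusted p under 0.05. Standard errors are the fold change over the root of the F statistic. CPM uses TMM-scaled library sizes. The length correction fits a loess trend (span 0.3) on log2 gene length in each library. The quantity fitted is the gene's log2 CPM minus its mean over the CLIP-seq libraries, and the trend enters the test as an offset. Groups follow the labels. Separate crosses are not stated for the replicates, and the p-values then reflect only how these samples vary, which may be technical. The subunit list, the companion list and the tests were chosen with earlier results of these data known. Every subunit gene is named or counted; full values are given for the genes with the smallest adjusted p in each role group (2, or 3 if called) and, in RNA-seq, the 2 highest control levels. Ubi-p63E, cnc, RpS27A, Sem1, Rpn2, Rpn8 and Rpn13R were chosen after their values were seen. The fit was tested on simulated data. The alternatives tried were DESeq2 1.42.0, its type of size factors in edgeR, scaling by library size only, a minimum count of 50 or none, a replicate block, a fit without the robust option, 0.5 as prior count, the length correction and each replicate left out. A robust loess was added after the data were seen.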

Additional observations from a re-analysis of the deposited data

How the results depend on the processing

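In RNA-seq, 0 subunit genes were called under every alternative run. Calls over all genes, 208 higher and 74 lower, became 320 and 149 with DESeq2 and 351 and 176 with no filter, and ran from 114 to 276 higher and 24 to 116 lower as each library was left out. The ubiquitin-proteasome list then had 1 gene higher with DESeq2 and 2 with no filter. The median of the subunit genes ran from 0.076 to 0.23 with a library left out. Same-numbered libraries showed no clear shared deviation (correlations of -0.063, -0.049 and 0.0040), which cannot settle whether they were paired. The replicate block gave 211 higher and 76 lower. Estimates near 0 changed sign: Prosbeta5 was -0.024 with library sizes alone and Rpn10 was 0.046 with the replicate block. With a library left out, Prosbeta5 ran from -0.077 to 0.16, Rpn10 from -0.24 to 0.38, Rpn7 from -0.10 to 0.33, Prosalpha7 from -0.17 to 0.0019, Rpt1 from -0.0046 to 0.31 and Rpt4 from -0.15 to 0.13. The cause was not tested.

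In the IP, library sizes alone moved the median of all genes to 0.29 from 0.0041. Subunit genes lower were then 8 (7 with DESeq2, 2 with the length correction, 0 with its robust form), all genes lower 417 (397 with DESeq2, 452 with the robust form), and all genes higher 141 with the length correction and 209 with its robust form. The subunit median was -0.73 with library sizes alone, -0.40 with the length correction and -0.31 with its robust form, and core minus regulatory particle was 0.0022 and 0.017 with these forms. Listed genes lower were 3 under each of these 3 settings, with 1 higher at library sizes alone. Subunit genes 2-fold lower in both were 5 with library sizes alone and 0 with the length correction. The share of all genes by this 2-fold rule was computed for the main setting only, at 10.3%. The counts under other settings therefore have no background beside them. Prosalpha3 was 0.014 with the length correction and 0.10 with its robust form, and Rpn13 0.015 with the robust form. With an IP replicate left out, where no residual degrees of freedom remain and no calls can be made, the median ran from -1.13 to -0.79, core minus regulatory particle from -0.45 to -0.28 and the 2-fold count from 12 to 19. The IP rests on 1 input library, and its replicate 1 has the fewest counts.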
